A study of Mus musculus with 6 samples.

Results

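Bone marrow holds blood-forming and vascular cells beside its stroma, and RNA of 37 genes that mark 8 of these other lineages was followed in cultures of mouse bone marrow mesenchymal stem/stromal cells (BMSCs). The genes were taken by name as markers of neutrophils, B cells, T and NK cells, erythroid cells, mast cells and progenitors, platelets, endothelium and dendritic cells, and a gene was measured where a row of the count tables carried exactly its symbol. Of the 37 genes, 30 had such a row among the 25722 genes listed. Elane, Mpo, Cd3g, Nkg7, Gzma, Cpa3 and Siglech had no row in the tables used here and were not analysed. The BMSCs were adherent cells from the long bones of wild-type C57BL/6 mice, kept at low oxygen in low-glucose DMEM with fetal bovine serum and a ROCK inhibitor and used before the third passage. Total RNA was sequenced from 3 control libraries, given the solvent DMSO, and 3 libraries given all-trans retinoic acid (RA), a ligand of nuclear receptors. The labels give 1 µM RA for 48 h, while the study's methods give a lower dose and a shorter time. The labels speak of 2 biological replicates although 3 libraries a group were used here. The spread between libraries may thus be partly technical, and a p-value then measures only that spread. Control 1 and control 3 were far more alike than other libraries of a group, with a chi-square per degree of freedom between their counts of 4.88. The other pairs within a group had 30.6 to 91.8. Whether control 1 and control 3 share a culture was not tested.

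Each marrow lineage carries RNA that its neighbours make little of. Neutrophils pack antimicrobial proteins into granules, red cell precursors fill with globin mRNA, platelets store chemokines made by megakaryocytes, and B cells signal through the CD79 chains of their receptor. Marrow cultures are selected mainly by adhesion to plastic, which non-adherent blood cells do not share but macrophages do. Some of these genes are not exclusive: Ebf1 is also transcribed in marrow stromal cells, Pecam1 in platelets and leukocytes, and S100a8 and S100a9 in monocytes.

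The libraries held between 14737636 and 18511905 counts, so that 3 counts, the limit that a count of 0 allows and the floor used below, stood for 0.159 to 0.21 CPM (a count scaled to the TMM-adjusted size of its library). These limits cover counting error only and leave out duplication of molecules by PCR. The libraries did not part by treatment. A first principal component computed without any marker gene, with 56.8% of the variance, put control 2, RA 1 and RA 2 on one side (set 1) and control 1, control 3 and RA 3 on the other (set 2), and no label names such a division. Set 1 thus held 1 control and set 2 held 1 RA library. Of 13842 genes tested with edgeR's quasi-likelihood test, 6 were called, meaning that the adjusted p was under 0.05 and the groups differed 1.5-fold or more. As a check on the label of the cells, 14 macrophage genes summed to between 20312 and 22917 CPM in a library, led by Lyz2, Adgre1 and Itgam, and 15 mesenchymal stromal genes to between 2673 and 5797 CPM, led by Itgb1, Col1a1 and Col1a2. Of the stromal surface markers, Cd44 stood at 237 to 293 CPM, Pdgfrb at 60.2 to 140, Vcam1 at 20.5 to 52.6 and Pdgfra at 6.64 to 24.3 CPM. Ly6a stood at 34.1 to 39.5 CPM in controls and 17.9 to 20.3 after RA (log2 fold change -0.90, adjusted p = 0.172 by edgeR). Lepr stood at 0.478 to 0.490 CPM in controls and 2.5 to 9.47 CPM after RA (log2 fold change 3.35, adjusted p = 0.292 by edgeR). Ly6a and Lepr were called in some other fits, given in the closing section. Nt5e stood at 0.140 to 1.12 CPM and Thy1 at 0 to 0.490 CPM. The cultures therefore held RNA of both kinds, and the pan-leukocyte gene Ptprc reached 462 to 715 CPM.

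The marker genes held little of the RNA in these cultures. The 30 genes together had 838, 1218 and 933 counts in control 1, 2 and 3 and 1462, 976 and 730 in RA 1, 2 and 3, which is between 0.00488% and 0.00842% of a library. Their summed level was 58.6, 64.7 and 64.1 CPM in the controls and 81.2, 61.7 and 49.7 CPM after RA. RA 1 was the highest and RA 3 the lowest, so that the RA libraries spanned all the controls. In bulk RNA, few cells of a type and little RNA per cell cannot be told apart.

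A handful of genes carried this sum. Pf4, Ebf1 and Pecam1 made up 64.1% to 83.0% of it in a library, and the other 27 genes summed to 17.0, 12.4 and 15.5 CPM in the controls and 13.8, 12.5 and 17.9 CPM after RA. Without those 3 genes, which were set apart after their values were seen, the lower sums were the 3 libraries of set 1 and the higher ones the 3 of set 2. Of the 30 genes, 10 were above 3 counts in every library, 9 in some and 11 in none. The 10 genes found throughout were S100a8, S100a9 and Camp of the neutrophil markers, Cd79b and Ebf1 of the B cell markers, Gata2, Pf4, and the endothelial Cdh5, Pecam1 and Kdr. Only 5 genes exceeded 1 CPM in every library. Per library, 13 to 15 genes were above 3 counts and 4 to 10 were at 0.

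**Figure D1:**
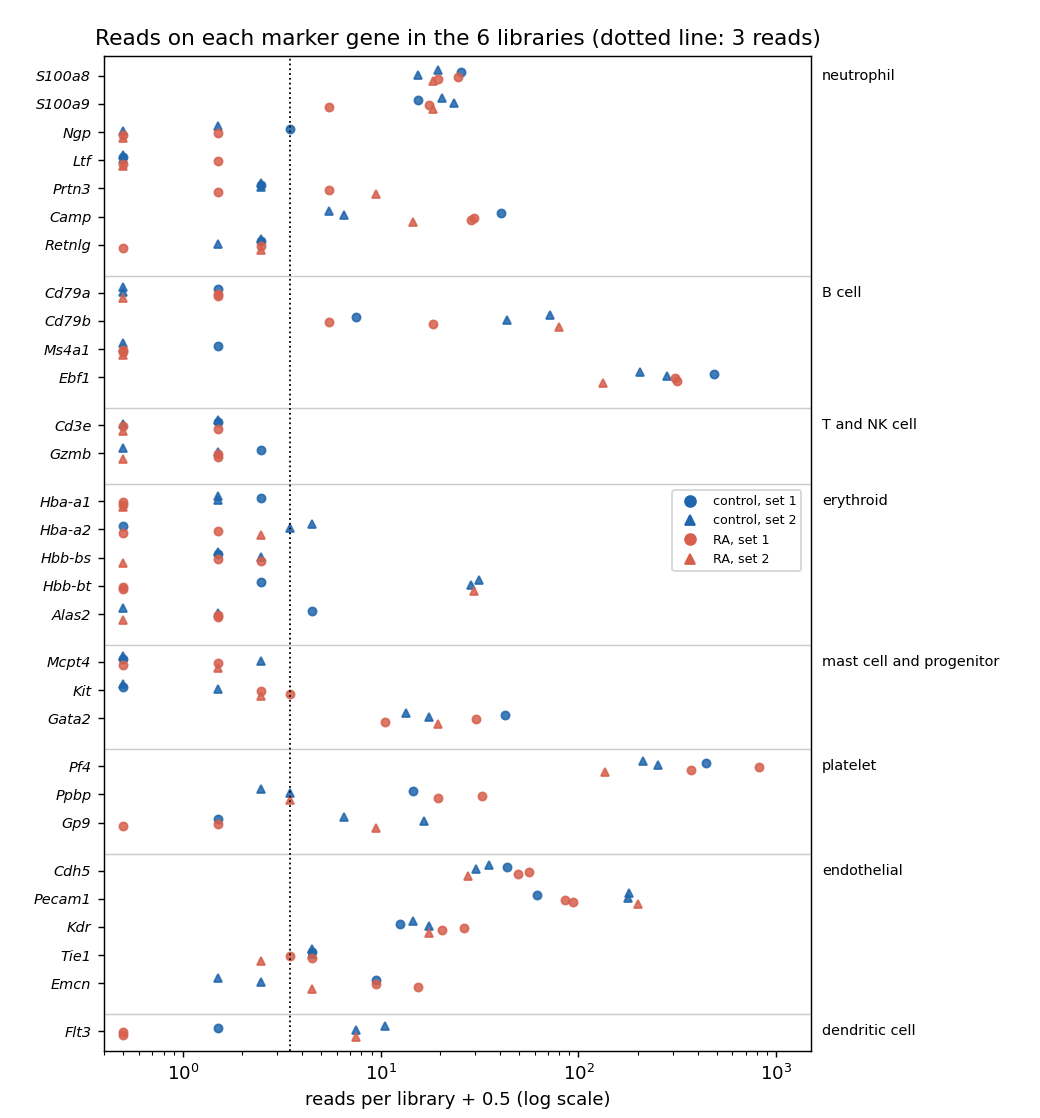
Reads on each of the 30 marker genes with a row, by lineage, on a log axis with a small constant added so that a count of 0 can be drawn. Each symbol is 1 library (blue control, red RA, circles set 1, triangles set 2) and the dotted line stands at 3 reads. Pf4, Ebf1 and Pecam1 lie to the right, and 11 genes have no symbol right of the line.

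Levels of different genes can be compared only per length of exon. On that scale Pf4 stood first, at 30.9 CPM per kb, above 93.8% of the listed genes. S100a9 (2.00 CPM per kb), Ebf1 (1.80), S100a8 (1.79), Cd79b (1.76), Camp (1.59), Hbb-bt (1.46) and Pecam1 (1.40) lay close together behind it, so that Ebf1 and Pecam1, whose exons are long, did not stand out per length. Ppbp had 0.657, Cdh5 0.588, Gp9 0.424, Gata2 0.244 and Kdr 0.123 CPM per kb. At the low end were Cd79a with 0.0197, Kit with 0.00946, Cd3e with 0.00761 and Ms4a1 with 0.00143 CPM per kb.

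Of the 30 genes, 12 passed the expression filter and were tested between RA and control BMSCs. In edgeR's quasi-likelihood test 0 of the 12 were called, where 0.0433% of all genes tested were, and 0 had an unadjusted p under 0.05, where 5.25% of all genes had one. Other fits also called 0 of the markers tested, against 0.983% of all genes with DESeq2, 1.54% with the library set as a covariate and 0.0778% without a filter on low counts. With the covariate 1 of the 12, Ebf1, had an unadjusted p under 0.05, against 15.1% of all genes. The smallest adjusted p was 0.795 with edgeR and, over every alternative run, 0.14. Of the 12 log2 fold changes, 6 were above 0 and 6 below, from -1.10 for Hbb-bt to 1.48 for Ppbp, with a median of -0.09 against -0.02 over all genes tested. Their standard errors were wide, with a median of 0.527 against 0.223 over all genes, so differences of this size were not detectable in the fit without the covariate. With the covariate the error was smaller for most, as for Hbb-bt (1.52 to 0.51), Cd79b (1.13 to 0.464) and Pecam1 (0.601 to 0.187). It was slightly larger for S100a8 and Kdr. For 0 of the 12 genes did all RA libraries lie on one side of all controls, where 12.6% of all genes tested did. The library sets, by contrast, did not overlap for 7 of the 12 (58.3%), where 47.8% of all genes tested were parted in this way. Camp, Pf4 and Ppbp were higher in each library of set 1 (23.4% of all genes were) and S100a9, Cd79b, Hbb-bt and Pecam1 lower (24.4% of all genes were). As these shares are near those of all genes, they say nothing particular about the markers. The other 18 genes with a row did not pass the filter, and their counts are given without a test.

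**Figure D2:**
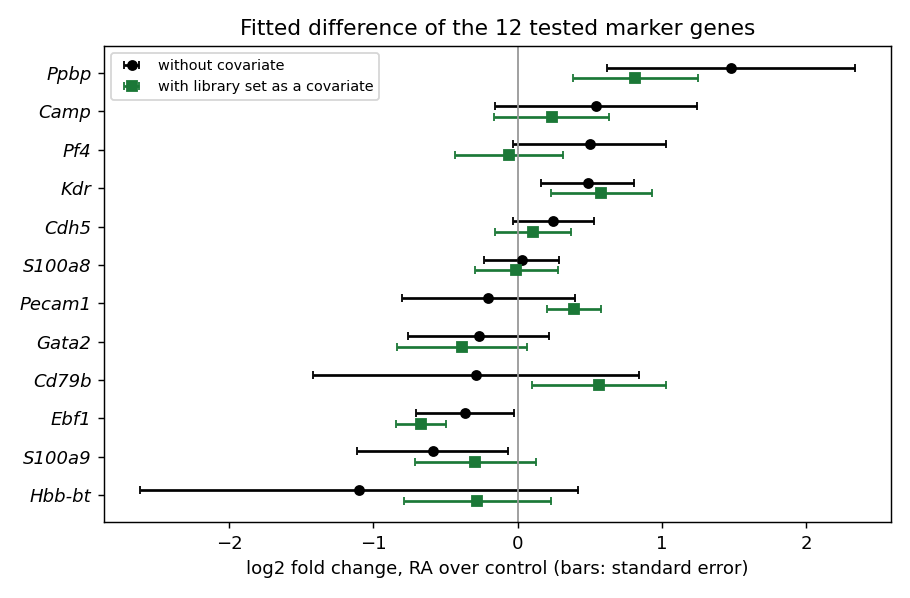
Fitted log2 fold change of RA over control for the 12 tested marker genes, with standard errors as bars, from edgeR without a covariate (black circles) and with the set of the library as covariate (green squares). The estimates run from -1.10 for Hbb-bt to 1.48 for Ppbp without the covariate, and Pf4, Pecam1, Cd79b and S100a8 change sign with it.

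Of the neutrophil markers, S100a8 was low and even across libraries, while S100a9 and Camp varied. S100a8 and S100a9, the subunits of calprotectin, are among the most abundant cytoplasmic proteins of neutrophils. S100a8 had 19, 25 and 15 reads in control 1, 2 and 3 and 24, 19 and 18 after RA, or 1.23 ± 0.172 CPM (SD, n = 3) in controls and 1.25 ± 0.0692 after RA. The groups overlapped, and the log2 fold change was 0.03 (standard error, SE, 0.261, adjusted p = 0.985 by edgeR). S100a9 had 20, 15 and 23 reads in controls and 17, 5 and 18 after RA. Its level was 1.26 ± 0.410 CPM (SD, n = 3) in controls and 0.829 ± 0.466 after RA, with a log2 fold change of -0.59 (SE 0.524, adjusted p = 0.807 by edgeR). RA 2 was lowest, and all 3 libraries of set 1 lay below those of set 2. Camp encodes the cathelicidin peptide of the secondary granules. It had 5, 40 and 6 reads in controls and 29, 28 and 14 after RA, so that control 2, RA 1 and RA 2 were high and control 1 and control 3 low. The difference of Camp was a log2 fold change of 0.54 (SE 0.701, adjusted p = 0.849 by edgeR), and it ran from 0.16 without control 1 to 1.92 without control 2.

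The other granule genes were at or near the floor. Ngp, a granule protein, had 1, 3 and 0 reads in controls and 1, 0 and 0 after RA, and Ltf, which encodes lactoferrin, had 1 read in RA 1 and 0 elsewhere. Retnlg, a secreted resistin-like protein, had 2, 2 and 1 reads in controls and 2, 0 and 2 after RA. Prtn3, proteinase 3 of the primary granules, had 2 reads in each control and 5, 1 and 9 after RA. Its exons share 159 bases (9.2%) with Plppr3 on the other strand, which had 99 to 268 reads, also the most in RA 1 and RA 3. The sources used here do not state whether counting used strand, and whether Plppr3 reads were counted for Prtn3 was not tested. The summed neutrophil level was 3.43, 4.62 and 3.23 CPM in controls and 4.39, 3.35 and 4.16 after RA.

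Among 16 further neutrophil genes, 11 had a row, 4 were tested and 0 were called. Mmp9, a gelatinase that neutrophils store and that macrophages and osteoclasts also make, had 60.6, 146 and 52.3 CPM in controls and 325, 265 and 94.0 after RA, a log2 fold change of 1.40 (SE 0.561, adjusted p = 0.795 by edgeR). Once the library set entered the fit, the value was 0.88 (SE 0.122, adjusted p = 0.0167 by edgeR), the only call in a list of the 8 lineages under any alternative. Csf3r, the receptor of the granulocyte growth factor G-CSF, stood at 19.4 to 33.1 CPM. Lcn2, the granule protein lipocalin 2, stood at 2.24 to 8.29 CPM. The defining genes Cxcr2 and Cebpe, a chemokine receptor and a factor of granule formation, had at most 5 and 4 reads, and Chil3, Padi4 and Gfi1 at most 5, 2 and 3 reads. Mmp8 of the same list was above the floor in every library, with 21, 34 and 21 reads in controls and 51, 32 and 11 after RA (log2 fold change 0.25, SE 0.469, adjusted p = 0.896 by edgeR).

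Among the 4 B cell markers, nearly all reads fell on Ebf1 and Cd79b. Ebf1 (chromosome 11 of GRCm38 from 44617317 to 45008091), a transcription factor that sets the B cell fate, had 205, 484 and 280 reads in controls and 307, 315 and 133 after RA. The levels were 14.3, 25.7 and 19.2 CPM in controls and 17.0, 19.9 and 9.06 after RA, so that control 2 was highest and RA 3 lowest. Over all libraries the log2 fold change was -0.36 (SE 0.341, adjusted p = 0.809 by edgeR). Within the sets Ebf1 was lower after RA in both, by a log2 ratio of -0.48 in set 1 and -0.89 in set 2. Fitted with the set as a covariate, the log2 difference was -0.67 (SE 0.174, adjusted p = 0.14 by edgeR), which did not pass the threshold. The summed stromal list was highest and lowest in the same libraries as Ebf1, at 5797 CPM in control 2 and 2673 in RA 3, and its part in the Ebf1 values was not tested.

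Cd79b and Cd79a encode the signaling chains that pair beneath the B cell receptor. Cd79b (chromosome 11 from 106311341 to 106314762) had 71, 7 and 43 reads in controls and 5, 18 and 79 after RA. The 3 libraries of set 2 held 2.95 to 5.38 CPM and those of set 1 only 0.278 to 1.14 CPM, whereas control and RA libraries overlapped (log2 fold change -0.29, SE 1.13, adjusted p = 0.955 by edgeR). Its partner Cd79a had at most 1 read in a library (0, 1 and 0 in controls, 1, 1 and 0 after RA). Ms4a1, which encodes CD20, had 1 read in control 2 and 0 in the other 5 libraries. Cd79b was thus above the floor in every library, while Cd79a and Ms4a1 were below it in each.

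Of 14 further B cell genes, 9 had a row, 4 were tested and 0 were called. Blnk, an adaptor of the B cell receptor that macrophages also use, stood at 178 to 316 CPM. Ighm, the µ heavy chain, had 10.3, 0.159 and 9.48 CPM in controls and 0.722, 0.759 and 15.1 after RA, high in the same 3 libraries as Cd79b. Bank1, a scaffold protein of B cells, was higher in every RA library than in every control (1.81 to 4.67 CPM in controls, 4.94 to 5.95 after RA), but with an edgeR adjusted p of 0.795 it did not pass the test. Pax5, the factor that keeps the B cell identity, had at most 0.136 CPM. Cd22 of the same list was above the floor in every library, with 71, 5 and 78 reads in controls and 18, 27 and 94 after RA (log2 fold change -0.21, SE 1.04, adjusted p = 0.964 by edgeR).

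Both T and NK cell markers with a row were at or below the floor in every library. Cd3e, a chain of the T cell receptor complex, had 1, 1 and 0 reads in controls and 0, 1 and 0 after RA. Gzmb, the protease granzyme B of cytotoxic cells, had 0, 2 and 1 reads in controls and 1, 1 and 0 after RA. Their sum did not exceed 3 reads in any library, so no fold is given, and a difference was not detectable at this depth. Of 16 further T and NK genes, 9 had a row, 1 was tested and 0 were called. That gene, Cd4, which myeloid cells can also transcribe, had 1.75, 0.266 and 3.23 CPM in controls and 0.278, 0.822 and 3.13 after RA, again highest in the 3 libraries of set 2. Cd247 stood at 0 to 0.893 CPM and Cd5 at 0.111 to 0.477 CPM. Trac, a chain of the T cell receptor, had 14 reads in control 2 and at most 1 elsewhere. Eomes, a factor of cytotoxic cells, had 0, 2 and 0 reads in controls and 12, 4 and 3 after RA, more in each RA library than in each control. Cd8a, with 0 reads in each control and 1 in each RA library, went with it. Prf1 went the other way, with 1, 2 and 1 reads in controls and 0 in each RA library. Eomes, Cd8a and Prf1 did not pass the filter and were not tested. Of all genes tested, 12.6% had the RA libraries all on one side of the controls.

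Erythroid marker reads were few in every library and most numerous in control 1, control 3 and RA 3, where the table places most of them on Hbb-bt (chromosome 7 from 103812524 to 103813996), 1 of the 2 adult β-globin genes. Hbb-bt had 31, 2 and 28 reads in controls and 0, 0 and 29 after RA. The 3 libraries of set 2 were nearly equal, at 2.17, 1.92 and 1.98 CPM, and each library of set 1 was below the floor, whatever the treatment. The log2 fold change between RA and control was -1.10 (SE 1.52, adjusted p = 0.858 by edgeR), and it ran from -7.49 without RA 3 to -0.47 without RA 1. Within set 2 RA 3 differed from the 2 controls by a log2 ratio of -0.05. The companion gene Hbb-bs had 1, 1 and 2 reads in controls and 1, 2 and 0 after RA. The α-globin genes were also low, with 1, 2 and 1 reads in controls and 0 in each RA library for Hba-a1, and 4, 0 and 3 reads in controls and 1, 0 and 2 after RA for Hba-a2. Alas2, the first enzyme of haem synthesis in red cell precursors, had 0, 4 and 1 reads in controls and 1, 1 and 0 after RA, and shares 311 exon bases (12.9%) with Apex2 on the other strand (86 to 183 reads).

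The globin values carry a limit that the sequences show. The coding sequences of Hbb-bs and Hbb-bt, both 441 bases long, differ at 1 base (99.8% identity) and share a run of 416 identical bases, and those of Hba-a1 and Hba-a2, both 426 bases long, also differ at 1 base, after a run of 380. The stretches around that base are given 5′ to 3′ from GENCODE M21, bases 352 to 441 of the β-globin and 336 to 425 of the α-globin coding sequences, with the differing base in capitals at position 417 and 381, counted from the first base of the coding sequence.
Hbb-bs: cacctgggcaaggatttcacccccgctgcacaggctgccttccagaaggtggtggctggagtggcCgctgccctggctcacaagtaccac
Hbb-bt: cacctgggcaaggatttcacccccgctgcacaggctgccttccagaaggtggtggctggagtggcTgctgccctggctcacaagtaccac
Hba-a1: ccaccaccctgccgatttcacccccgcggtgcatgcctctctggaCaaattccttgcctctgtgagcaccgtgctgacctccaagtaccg
Hba-a2: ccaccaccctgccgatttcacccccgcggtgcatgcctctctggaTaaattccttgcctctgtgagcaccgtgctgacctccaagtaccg
A read inside the coding sequence can thus be told apart between the partners only where it covers that base. How the counting placed reads that match both genes is not given in the sources used here, so the values within each pair are uncertain. The sum over the 5 erythroid genes was 2.59, 0.478 and 2.40 CPM in controls and 0.167, 0.190 and 2.11 after RA. Of 12 further erythroid genes, 5 had a row, 1 was tested and 0 were called. Epor, the receptor of erythropoietin, followed the same libraries, with 4.76, 0.266 and 3.64 CPM in controls and 0.278, 0.316 and 2.79 after RA (log2 fold change -1.36, SE 1.16, adjusted p = 0.803 by edgeR). Klf1, which switches on the adult globin genes, had at most 0.136 CPM and Ermap, a red cell membrane protein, 0.111 to 0.477 CPM.

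**Figure D3:**
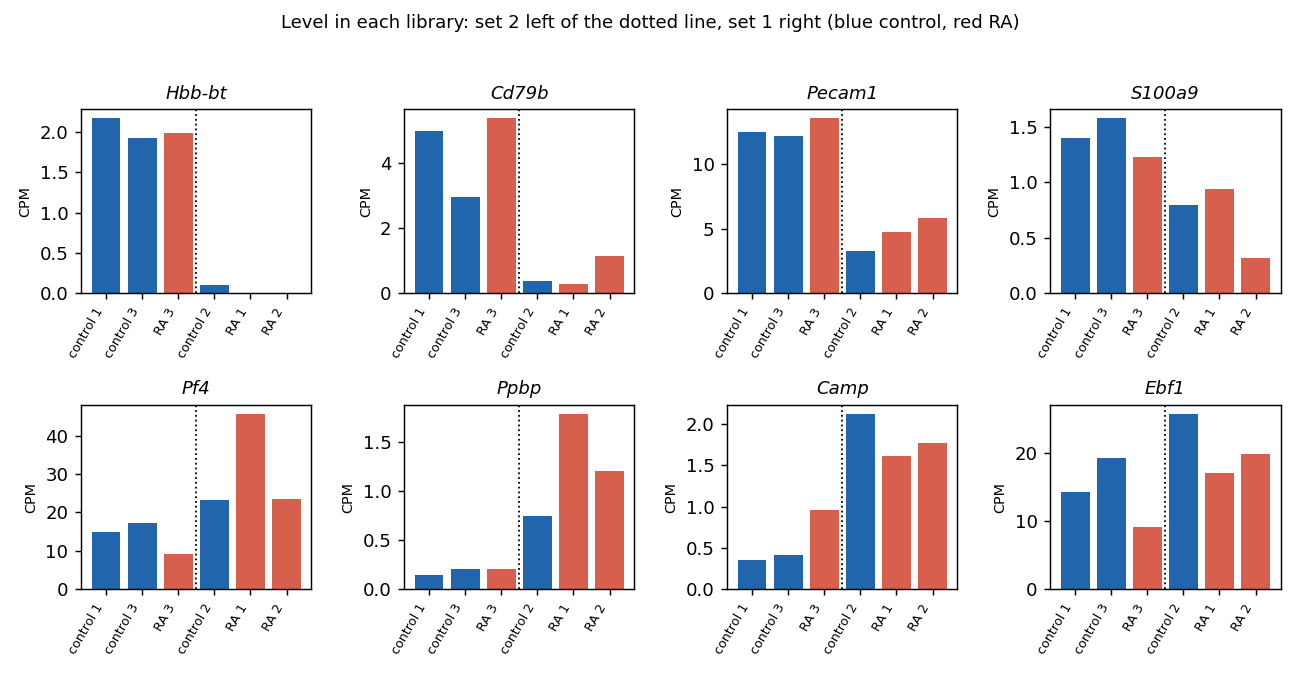
CPM of 8 marker genes in each library, as bars from 0, with set 2 left and set 1 right of the dotted line (blue control, red RA). Hbb-bt, Cd79b, Pecam1 and S100a9 are higher in each library of set 2, Pf4, Ppbp and Camp are higher in each library of set 1, and Ebf1 overlaps between the sets.

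Of the mast cell and progenitor markers only Gata2 was above the floor, a transcription factor of blood progenitors, mast cells and endothelium. Gata2 had 13, 42 and 17 reads in controls and 30, 10 and 19 after RA, with control 2 highest and RA 2 lowest. Its level was 1.44 ± 0.700 CPM (SD, n = 3) in controls and 1.20 ± 0.523 after RA (log2 fold change -0.27, SE 0.488, adjusted p = 0.894 by edgeR), so the groups overlapped. Kit, the receptor of stem cell factor on mast cells and progenitors, had 0, 0 and 1 reads in controls and 2, 3 and 2 after RA, and Mcpt4, a mast cell protease, had 0, 0 and 2 reads in controls and 1, 0 and 1 after RA. Both genes stayed at or below 3 reads, and no fold is given. Of 12 further genes of this kind, 9 had a row, 4 were tested and 0 were called. By CPM the highest were Mitf (at most 82.2 CPM), a factor of mast cells, macrophages and osteoclasts, Gfi1b (2.02 to 7.06 CPM) and Meis1 (2.88 to 5.63 CPM). Per length of exon, Cd34 (1.54 to 4.55 CPM) was level with Meis1, at 0.400 against 0.397 CPM per kb. The mast cell protease gene Cma1 and the IgE receptor chain Ms4a2 had at most 0.140 and 0.0531 CPM.

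Among the platelet markers Pf4 had by far the most reads. Pf4 and Ppbp encode chemokines of the platelet α granules and lie side by side on chromosome 5 of GRCm38, Ppbp from 90768518 to 90770063 and Pf4 from 90772435 to 90773383. Pf4 had 211, 439 and 251 reads in controls and 821, 371 and 135 after RA. In CPM, Pf4 stood at 14.8, 23.3 and 17.2 in controls and at 45.6, 23.5 and 9.20 after RA, so that RA held both the highest and the lowest library. The mean was 18.4 ± 4.40 CPM (SD, n = 3) in controls and 26.1 ± 18.3 after RA, and the log2 fold change of 0.50 (SE 0.53, adjusted p = 0.83 by edgeR) was smaller than its error. Within set 1 Pf4 was higher after RA, by a log2 ratio of 0.57, and within set 2 lower, by -0.80. In set 1 only RA 1 was higher, since RA 2 (23.5 CPM) and control 2 (23.3 CPM) were alike. Without RA 1 the log2 fold change over all libraries was -0.15, so its sign rested on that library.

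Ppbp had 2, 14 and 3 reads in controls and 32, 19 and 3 after RA. Control 1, control 3 and RA 3 were at or below 3 reads, while control 2, RA 1 and RA 2 held 0.744, 1.78 and 1.20 CPM. The log2 fold change of 1.48 was the largest of the 12 tested markers (SE 0.859, adjusted p = 0.795 by edgeR), it was 2.60 without control 2 and 0.91 without RA 1, and it was 0.82 once the library set entered the fit (adjusted p = 0.406 by edgeR). Gp9, a chain of the von Willebrand factor receptor of platelets, had the opposite order, with 6, 1 and 16 reads in controls and 1, 0 and 9 after RA. Gp9 was thus high in the libraries where Pf4 and Ppbp were low. Of 10 further platelet genes, 9 had a row, 4 were tested and 0 were called. Itgb3, the β3 integrin of platelets and osteoclasts, had 5.11, 6.43 and 5.36 CPM in controls and 4.22, 1.96 and 3.75 after RA, with each RA library below each control (log2 fold change -0.77, SE 0.315, adjusted p = 0.795 by edgeR). Gp1ba stood at 1.75 to 3.75 CPM and Treml1, of the α granule membrane, at 0.666 to 1.51 CPM. The integrin chain Itga2b, which defines the lineage, had 4 to 10 reads (0.253 to 0.699 CPM), above the floor in every library, as was Clec1b with 4 to 20 reads. The platelet tubulin Tubb1 had at most 0.0687 CPM and the collagen receptor Gp6 at most 0.0555 CPM.

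The promoters of Ppbp and Pf4 are shown because these neighbours were both higher in each library of set 1. Of all genes tested, 23.4% were too, so the shared order is not particular to this pair. They are the 250 bases before the start of each gene, 5′ to 3′ on the plus strand, from RefSeq on GRCm38.p6, for Ppbp chr5:90768268-90768517 and for Pf4 chr5:90772185-90772434. Capitals mark ACTTCC, the reverse complement of GGAAGT, a core bound by ETS factors.
Ppbp: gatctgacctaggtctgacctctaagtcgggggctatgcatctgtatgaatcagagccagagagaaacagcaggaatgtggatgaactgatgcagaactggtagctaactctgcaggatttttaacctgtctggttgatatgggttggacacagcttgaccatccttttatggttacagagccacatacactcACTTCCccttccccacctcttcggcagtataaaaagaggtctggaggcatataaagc
Pf4: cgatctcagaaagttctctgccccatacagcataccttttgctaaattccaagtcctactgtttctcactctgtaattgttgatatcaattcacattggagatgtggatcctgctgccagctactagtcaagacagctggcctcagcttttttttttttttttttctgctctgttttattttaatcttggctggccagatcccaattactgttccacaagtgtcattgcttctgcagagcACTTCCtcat
Each held 1 match of GGAAGT, searched on both strands, and 19.7% of 32851 promoters of that length hold one. This motif was chosen after the sequences were seen. The GATA forms AGATAA and TGATAA had no match in either window on either strand, and 16.6% of all promoters hold at least 1 of them (9.99% AGATAA, 7.94% TGATAA). A match is a string of letters and not a site.

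Of the 5 endothelial markers, Pecam1, Cdh5 and Kdr were above the floor in every library, and in each library Pecam1 had the most reads of the 5. Pecam1 (chromosome 11 from 106654217 to 106750628), the adhesion molecule CD31 of endothelial junctions, leukocytes and platelets, had 179, 61 and 177 reads in controls and 85, 93 and 200 after RA. The libraries of set 2 were alike, at 12.5, 12.2 and 13.6 CPM, and those of set 1 lower, at 3.24, 4.72 and 5.88 CPM, while RA and control overlapped (log2 fold change -0.20, SE 0.601, adjusted p = 0.938 by edgeR). Within both sets Pecam1 was higher after RA, by a log2 ratio of 0.71 in set 1 and 0.14 in set 2, and a fit with the set as a covariate gave 0.39 (SE 0.187, adjusted p = 0.368 by edgeR). Cdh5, the VE-cadherin of endothelial junctions, had 35, 43 and 30 reads in controls and 56, 49 and 27 after RA, or 2.26 ± 0.195 CPM (SD, n = 3) and 2.68 ± 0.730 (log2 fold change 0.25, SE 0.282, adjusted p = 0.837 by edgeR). Its order across libraries was not that of Pecam1, with RA 1 and RA 2 highest and RA 3 lowest.

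Kdr, the main receptor of VEGF on endothelium, had 14, 12 and 17 reads in controls and 26, 20 and 17 after RA. The RA libraries stood at 1.44, 1.27 and 1.16 CPM and the controls at 0.979, 0.637 and 1.17 CPM, so that the lowest RA library only just overlapped the highest control (log2 fold change 0.49, SE 0.324, adjusted p = 0.795 by edgeR). Tie1, a receptor kinase of endothelium, was near the floor, with 4 reads in each control and 3, 4 and 2 after RA. Emcn, the sialomucin endomucin of marrow sinusoids, had 1, 9 and 2 reads in controls and 9, 15 and 4 after RA, higher in each library of set 1. Of 15 further endothelial genes, 14 had a row, 7 were tested and 0 were called. Eng, a TGF-β coreceptor that stromal cells and macrophages also carry, stood at 33.0 to 59.8 CPM and was highest in set 1. Vwf, the von Willebrand factor of endothelium and platelets, had 4.83, 1.33 and 3.98 CPM in controls and 1.11, 1.52 and 5.04 after RA, and Stab2, a scavenger receptor of sinusoidal endothelium, had 1.26, 0.159 and 1.58 CPM in controls and 0.389, 0.886 and 3.07 after RA. Vwf and Stab2 were thus higher in each library of set 2, as were Pecam1 and 24.4% of all genes tested. Of the 7 further genes tested, 2, Eng among them, were higher in each library of set 1. The sets therefore show nothing particular to these genes. The endothelial transcription factors Erg, Sox17 and Sox18 had at most 0.372, 0.0699 and 0.343 CPM. Egfl7 (4 to 16 reads), Ecscr (4 to 20) and Plvap (5 to 21) of the same list were above the floor in every library.

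Of the dendritic cell markers only Flt3, a growth factor receptor of progenitors and dendritic cells, had a row. Flt3 had 10, 1 and 7 reads in controls and 0, 0 and 7 after RA. The libraries of set 2 were above the floor and those of set 1 were not, with both treatments on each side. Of 13 further dendritic cell genes, 12 had a row, 7 were tested and 0 were called. By CPM the highest were Bst2 (113 to 285 CPM), Irf8 (96.8 to 178 CPM) and Tcf4 (83.7 to 140 CPM), which are not exclusive to dendritic cells. Per length of exon, Batf3 (7.33 to 11.9 CPM) stood above Tcf4, at 5.95 against 4.19 CPM per kb. The defining gene Xcr1 had 9, 15 and 9 reads in controls and 12, 14 and 9 after RA, above the floor in every library, as was Zbtb46 with 4 to 16 reads. Clec9a had at most 0.409 CPM.

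**Figure D4:**
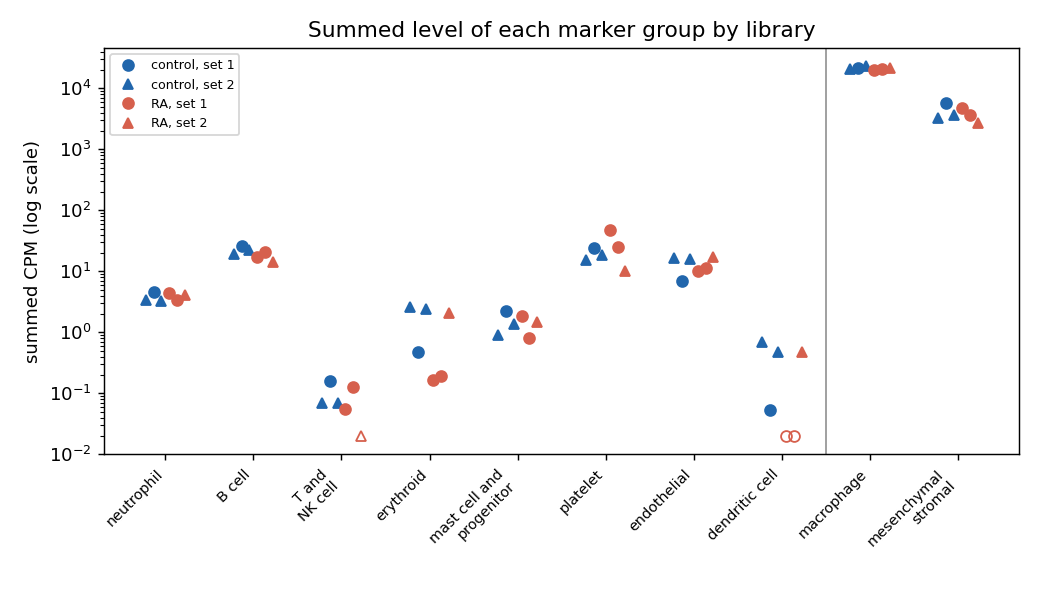
Summed CPM of the marker genes of each of the 8 lineages in each library, on a log axis, beside the macrophage and mesenchymal stromal lists right of the grey line (blue control, red RA, circles set 1, triangles set 2). Sums of 0 are drawn as open symbols near the bottom of the axis. Within each lineage the RA and control symbols overlap, and the erythroid and dendritic sums are highest in control 1, control 3 and RA 3.

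The sums of CPM weigh long genes more and are compared here between libraries, not between lineages. B cell markers held 19.3, 26.2 and 22.2 CPM in controls and 17.4, 21.1 and 14.4 after RA, platelet markers 15.3, 24.1 and 18.5 in controls and 47.4, 24.7 and 10.0 after RA, and endothelial markers 16.3, 6.85 and 15.8 in controls and 9.94, 11.5 and 17.0 after RA. RA and control overlapped in each of these sums. Ebf1, Pf4 and Pecam1 had the most reads of their lineage in each library. Pecam1 nevertheless had only 61 of 129 endothelial reads in control 2 and 85 of 179 in RA 1. The mast cell and progenitor sum was 0.909 to 2.23 CPM in controls and 0.822 to 1.83 after RA.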

How the data were processed

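The data were 3 control and 3 RA-treated RNA libraries of mouse BMSCs. The authors deposited 1 table a library, holding raw counts of the reads on each gene. Per the labels' processing notes Bowtie2 2.2.3 and mm10 were used; the counting program and its use of strand are not given in the sources used here. Groups and replicate numbers were taken from the labels. The 37 marker genes and the further lists were chosen with earlier results of these data known.

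Counts were analysed in R 4.3.3 with edgeR 4.0.16: TMM scaling, the filterByExpr filter (13842 genes) and quasi-likelihood testing of RA against control without covariates, with Benjamini-Hochberg adjustment over all genes tested. Genes were called at an adjusted p under 0.05 and at least a 1.5-fold change. An exact permutation test of 3 against 3 libraries cannot go below 0.1 (two-sided), so none was run on the sums. The fit was run on counts simulated at a fixed dispersion and without library sets. Whether it performs alike on the spread of these data was not tested. Levels are CPM by the effective library size, per kb of merged GENCODE M21 exons where genes are compared. Library totals ran from 14737636 to 18511905 counts. Every marker gene is named, and of each further list the 3 genes with the highest mean CPM and any gene called. Others there (Pax5, Cma1, Ms4a2, Itga2b, Tubb1, Gp6, Erg, Sox17, Sox18, Xcr1, Zbtb46, Clec9a, Trac, Eomes, Cxcr2, Cebpe, Chil3, Padi4, Gfi1, Thy1, Nt5e, Cd44, Pdgfrb, Vcam1, Pdgfra and Ptprc) were added after their values were seen, as genes that define their lineage, as were Lepr and Ly6a. Clec1b, Batf3, Cd34, Mmp8, Cd22, Egfl7, Ecscr, Plvap, Cd8a and Prf1 were also added after their values were seen, as further genes of these lists. Alternatives were DESeq2 1.42.0, other scalings and filters, edgeR's likelihood ratio test, the replicate block, the library set (side of a principal component of 1000 genes without any listed gene) as a covariate, and leaving out each library.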

Additional observations from a re-analysis of the deposited data

How the results depend on the processing

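Of the marker genes 0 were called under any alternative, including each library left out. The number tested was 12, 7 where 10 counts were needed in every library and 30 of 25722 genes without a filter. Of all genes 6 were called, 136 with DESeq2, 134 with edgeR's likelihood ratio test, 20 without a filter, 213 with the library set as a covariate, 4 with the replicate block and 0 to 6 with 1 library left out (0 without control 1, 2 without control 2, 1 without control 3, RA 1 or RA 2). Deviations of same-numbered libraries correlated at -0.51, 0.343 and 0.572, too few values to decide whether the numbers pair the libraries. The libraries numbered 2 and 3 share a set and those numbered 1 do not. Genes above the floor in every library were 10, 6 at 10 counts and 5 at 1 CPM. Without a filter 11 neutrophil, 9 B cell, 9 T and NK cell, 5 erythroid, 9 mast cell, 9 platelet, 14 endothelial and 12 dendritic cell genes of the further lists were tested, and with at least 10 counts 2 B cell, 0 T and NK cell, 0 erythroid and 2 endothelial genes. Of the stromal genes 2, Lepr (log2 fold change 3.35) and Ly6a (-0.90), were called with DESeq2, the likelihood ratio test and the covariate, and 1 neutrophil gene, Mmp9, with the covariate.

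Some log2 fold changes turned sign. With the replicate block Hbb-bt went from -1.10 to -1.83, and with the covariate to -0.28. With the covariate S100a8 went to -0.0078, Cd79b to 0.56, Pf4 to -0.061 and Pecam1 to 0.39. The block turned the sign of 0 of the 12 markers. With 1 library left out, S100a8 ran from -0.083 to 0.10 (below 0 without control 3), Cd79b from -1.96 to 0.46 (above 0 without control 1, RA 1 or RA 2), Gata2 from -0.57 to 0.22 (above 0 without control 2 or RA 2), Pf4 from -0.15 to 0.90 (below 0 without RA 1) and Pecam1 from -0.81 to 0.096 (above 0 without control 1, control 3 or RA 1). The others kept their sign, S100a9 from -0.96 (without RA 3) to -0.21 (without RA 2), Camp from 0.16 (without control 1) to 1.92 (without control 2), Ebf1 from -0.60 (without RA 2) to -0.10 (without RA 3), Hbb-bt from -7.49 (without RA 3, which leaves 0 reads after RA) to -0.47 (without RA 1), Ppbp from 0.91 (without RA 1) to 2.60 (without control 2), Cdh5 from 0.13 (without RA 2) to 0.45 (without RA 3) and Kdr from 0.28 (without control 2) to 0.68 (without control 3). The erythroid log2 ratio of summed CPM, -1.15, ran from -3.36 (without RA 3) to -0.66. The filters change these numbers by the genes they keep, and otherwise the cause was not tested. Scalings moved the median of all genes by under 0.1. Depth limits the 11 genes that never exceeded 3 reads, for which no difference was detectable.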
